A study of Mus musculus with 8 samples.

Results

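The promoter of Vars, the gene for the cytosolic valyl-tRNA synthetase, was examined in germline stem (GS) cells of the mouse. Its members were all cytosines that the deposited promoter table assigned to Vars (ENSMUSG00000007029), 59 sites of 203645 sites and 1 gene of 9224 genes. The promoter was chosen by its ICSI-F1 against control-F1 levels and by their profile along its sites, so that every difference between those groups is given as a description, without a test. GS cells are spermatogonia that keep stem cell activity in culture. Genomic DNA of 8 lines was analyzed by reduced representation bisulfite sequencing (RRBS), with 1 library per line. All lines were of C57BL/6 (B6) background and WT genotype, were derived from CD9+ spermatogonia of mature testes and were grown in medium with FGF2 and GDNF. The control-F1 lines 29, 37, 44 and 45 came from mice born after natural mating, and the ICSI-F1 lines 11, 17, 20 and 21 came from mice born after intracytoplasmic sperm injection. The line numbers are also numbers that the study gives to single F1 mice. RNA was not measured in these libraries, so that the cell type label could not be checked against marker genes in them. The study also reports RNA-Seq of GS cells with the same line numbers, which was not used here.

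Valyl-tRNA synthetase loads valine onto its tRNA and is needed by every cell that makes protein. Promoters of such genes usually lie in CpG islands, stretches rich in the CpG dinucleotide that stay unmethylated in most tissues, while CpGs outside islands and in repeated sequence are usually methylated. RRBS cuts DNA with MspI at CCGG, converts unmethylated cytosines with bisulfite and reads the fragment ends, so that only CpGs near such sites are seen. The level of a site was the percentage of its reads that still carried a cytosine. In mm10, Vars lies on the plus strand of chromosome 17 from 35000987 to 35016322, inside a region annotated as a CpG island from 35000000 to 35002100. The 59 sites belonged to 30 CpGs, 29 of them measured on both strands, and lay 21 to 663 bp upstream of that start. RefSeq places the start of Vars 80 bp further upstream, at 35000907. It also places a minus-strand gene, D17H6S56E-5, from 34996678 to 35000774, and its first exon in the curated transcript runs from 35000167 to 35000746.

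The measured sites fell into 2 runs, and short stretches of the reference (RefSeq, GRCm38.p6, plus strand, CG in capitals) are shown because the result turns on which CpGs belong to which run. The first 3 lie in the upstream run, within the 5′ untranslated part of the curated D17H6S56E-5 transcript, and the last 3 lie in the run next to Vars.
Outer group, chr17:35000340-35000369: tCGgatgactggCGCGcCGagtgtggagta
Inner group, chr17:35000402-35000431: caaaaagCGCGggtacagaagCGagaagCG
Near edge, CpG in CCGG, chr17:35000458-35000487: ttggggtatttccCGgtcatttggggaacc
First CpG of the near run, chr17:35000741-35000770: cacttggagcagccCGagattctgcagctc
Bases outside RefSeq transcripts, chr17:35000780-35000906: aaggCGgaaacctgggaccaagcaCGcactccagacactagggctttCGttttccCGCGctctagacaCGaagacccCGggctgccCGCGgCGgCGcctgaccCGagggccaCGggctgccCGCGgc
Start side, chr17:35000930-35000959: CGtccCGgcaCGCGggttccCGtctcCGtg
The upstream run held 21 sites of 11 CpGs, from position 35000324 to 35000472, or 663 to 515 bp from the start. It spanned 149 bases between 2 CCGG sites, which is 1 MspI fragment of the reference. The run near the gene held 38 sites of 19 CpGs, from 35000755 to 35000966, or 232 to 21 bp from the start. Between the runs, 282 bases with 4 reference CpGs were not measured. Of the 15 CpGs in the longest stretch printed, the 6 before the CCGG were not measured either.

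The 2 runs had different levels in every line. In the upstream run the mean level was 26.7% in control-F1 line 29, 44.9% in line 37, 68.5% in line 44 and 69.6% in line 45. In the ICSI-F1 lines it was 48.6% in line 11, 16.3% in line 17, 19.7% in line 20 and 34.7% in line 21. In the run near the gene it was 2.43% to 5.98% in all 8 lines. The upstream run was thus higher in 8 of 8 lines, by 37.2 percentage points on average, and by 37.9 percentage points without the sites in CCGG. This contrast is not tested, because the profile was known when the promoter was picked. Of the 38 sites near the gene, 35 had a mean level under 5%, and 3 had no methylated read in any line. At positions 35000871 and 35000909 on the plus strand these were 513 reads each, which allows a level of up to 0.585%, and at 35000755 they were 250 reads, which allows up to 1.2%. Such limits cover counting error only, since the reads carried no molecular identifiers. The other 3 sites near the gene were in CCGG and had mean levels of 48.1% at 35000858, 31.3% at 35000936 and 22.4% at 35000935. All 21 upstream sites and these 3 had a mean level of at least 20%.

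**Figure D1:**
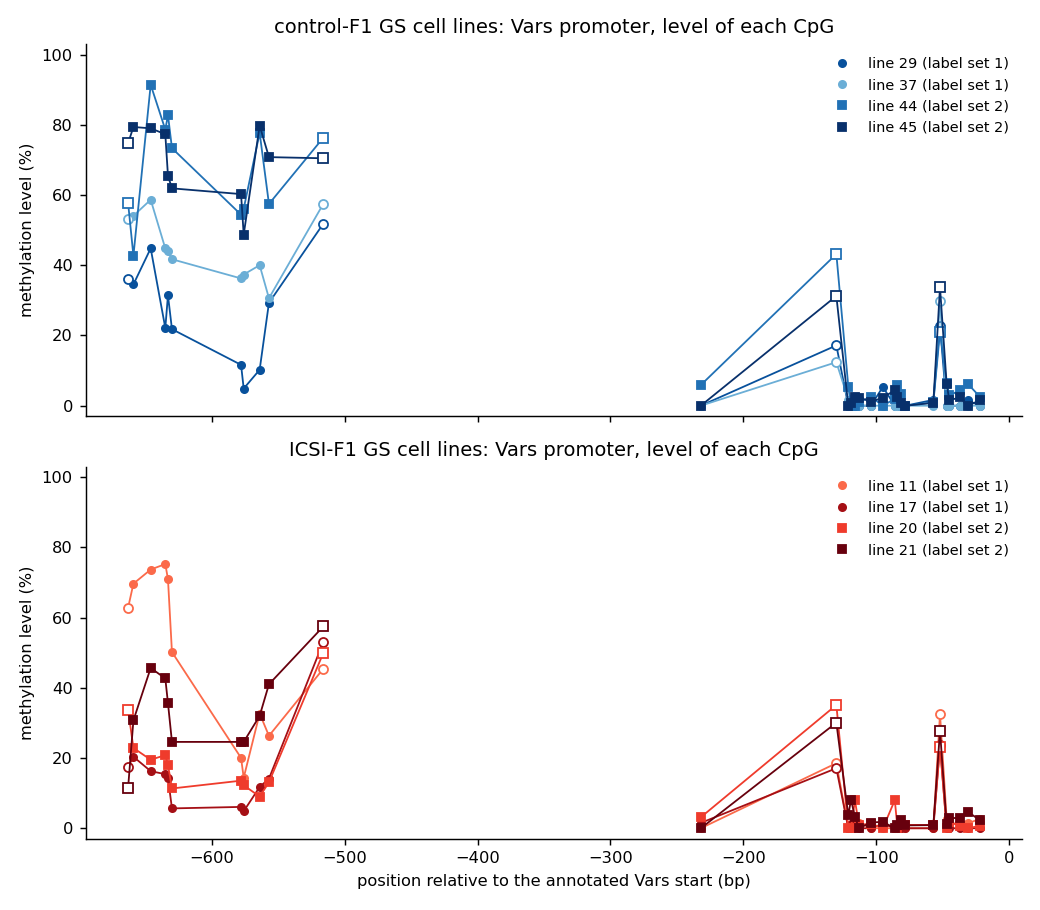
Methylation level of each of 30 CpGs (strands averaged, in %) against position relative to the annotated start of Vars (bp), with control-F1 lines above and ICSI-F1 lines below. Open symbols mark CpGs in CCGG, and the lines spread widely in the upstream run but lie close to 0 near the gene, apart from the 2 open positions there.

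The lines spread over most of the possible range in the upstream run. With strands averaged, the order was line 45, 44, 11, 37, 21, 29, 20 and 17 from high to low. ICSI-F1 line 11 thus stood above 2 control-F1 lines, and control-F1 line 29 stood below 2 ICSI-F1 lines. The place of line 11 depended on strand. At the upstream sites outside CCGG it lay below line 37 on the plus strand (37.1% against 40.4%) and above it on the minus strand (59.1% against 45.7%). Neighbours in this order were compared site by site with exact (Clopper-Pearson) 95% binomial intervals on the reads before scaling. Lines 45 and 44 differed by 1.02 percentage points, with intervals apart at 1 of 21 sites. Lines 20 and 17 differed by 3.49 percentage points, with intervals apart at 0 of 21 sites. The largest step was from line 44 at 68.5% to line 11 at 48.6%, where line 44 was higher at 12 sites and lower at 1 site. The other steps were 3.65 to 10.2 percentage points, with intervals apart at 1 to 6 of 21 sites. Over the upstream sites the SD within a group was 22.0 percentage points (root mean square). The intervals cover counting error only, since amplified reads are not independent molecules.

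The site at 35000341 on the plus strand, in the outer group printed above, shows the spread in single reads. Its level was 47.1% in line 29, 56.8% in line 37, 89.2% in line 44 and 82.4% in line 45. It was 56.7% in line 11, 14.8% in line 17, 22.0% in line 20 and 39.3% in line 21. For line 44, 104 of 117 reads were methylated (95% interval 81.7% to 93.9%), and for line 17, 12 of 81 reads (7.90% to 24.4%). Upstream sites moved together across lines. Between the 18 upstream sites outside CCGG, the 153 pairs had a median Pearson r over 8 lines of 0.806, with a range of 0.227 to 0.988. This is a description, since the sites share libraries and, on each strand, reads. Line 44 or 45 was the highest line at 15 of those 18 sites and line 11 at the other 3, and line 17 was the lowest at 10.

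**Figure D2:**
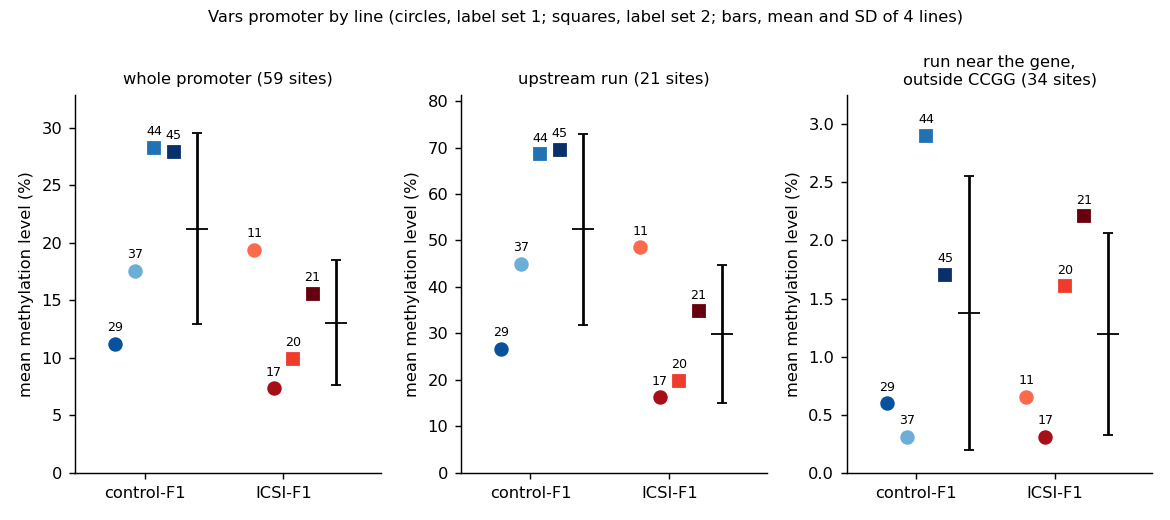
Mean methylation level (%) of the whole Vars promoter, the upstream run and the run near the gene without CCGG, for each of 8 lines by group (number, line; circles, label set 1; squares, label set 2; bars, mean and SD of 4 lines). The vertical scales differ, with lines 44 and 45 near 28% in the promoter and near 69% in the upstream run, and all lines under 3% near the gene.

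Within the upstream run the level was not even. The outer group of 5 CpGs, 659 to 629 bp from the start, was higher than the inner group of 4 CpGs, 578 to 556 bp from the start, in 8 of 8 lines. The difference was 5.21 to 16.9 percentage points in 7 lines. In ICSI-F1 line 11 it was 44.6 percentage points, from 67.9% in the outer group to 23.4% in the inner group. With strands averaged, line 11 thus stood near the high control-F1 lines 44 (73.8%) and 45 (72.6%) in the outer group. It stood below control-F1 line 37 (36.1%) in the inner group. The place of line 11 in the outer group differed by strand. On the plus strand it had 51.7%, against 74.4% in line 44, 76.3% in line 45 and 45.9% in line 37. On the minus strand it had 84.1%, against 73.1% in line 44 and 68.9% in line 45.

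The strands of these 9 CpGs were close in 6 lines and apart in 2. In line 11 the plus strand had 37.1% and the minus strand 59.1%. In line 21 the plus strand had 23.1% and the minus strand 43.9%. In the other 6 lines the strands differed by 1.64 to 5.72 percentage points, with the plus strand higher in 3 lines and lower in 3. At the CpG that starts at 35000352, line 11 had 55.0% on the plus strand (51 of 93 reads, 95% interval 44.2% to 65.2%) and 95.5% on the minus strand (42 of 44 reads, 84.5% to 99.4%). The minus strand of the upstream CpGs outside CCGG was covered by 25 to 88 reads before scaling and the plus strand by 50 to 155. Over the 8 lines the plus strand had 36.5% and the minus strand 41.8%, a difference of −5.37 percentage points that did not pass the test (exact two-sided sign-flip test over the 8 lines, p = 0.25, adjusted p = 0.320 over 3 strand comparisons by the Benjamini-Hochberg method).

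**Figure D3:**
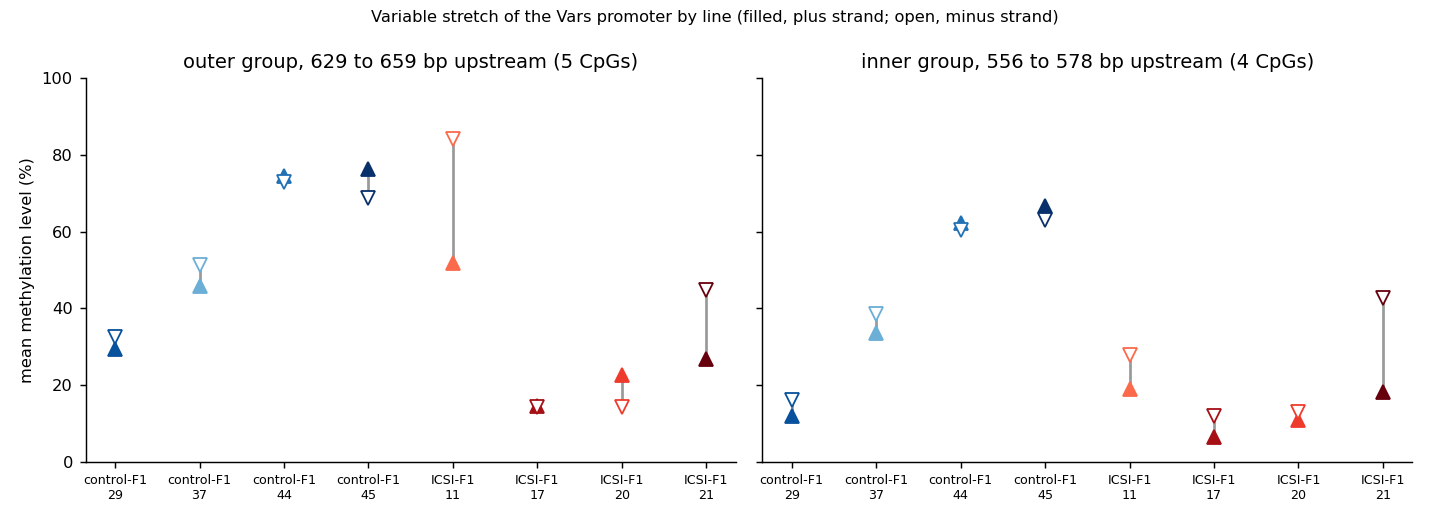
Mean methylation level (%) of the outer group (left) and inner group (right) of upstream CpGs in each of 8 lines, by strand (filled, plus; open, minus). Strands lie close in most lines but are apart in line 11, at 51.7% and 84.1% in the outer group, and in line 21, at 18.3% and 42.8% in the inner group.

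Near the gene, the 17 CpGs outside CCGG had 0.908% on the plus strand and 1.66% on the minus strand. The plus strand was lower in 8 of 8 lines, with a mean difference of −0.756 percentage points (exact two-sided sign-flip test, p = 0.00781, the smallest that 8 lines allow, adjusted p = 0.0234). This set of CpGs, like the upstream set outside CCGG, was chosen after seeing the data, so that its p-value is descriptive only. The adjustment also leaves out the settings with pooled reads and with at least 30 scaled reads given below. The plus strand was at 0 in lines 37 and 17, so that it could not lie above the minus strand there. Over all 29 CpGs with both strands the levels were 16.0% and 17.4%, a difference of −1.37 percentage points (exact sign-flip test, p = 0.320, adjusted p = 0.320). The sign of that overall difference turned with the weighting of the sites, since reads pooled over sites gave 4.65 percentage points (exact sign-flip test, p = 0.0625), and it was −2.35 percentage points without the CpGs in CCGG. At the 18 CpGs with at least 30 scaled reads in every line it was −3.56 percentage points (exact sign-flip test, p = 0.00781). These 18 all lay near the gene, so that this value holds no CpG of the upstream run. They included the CpGs in CCGG 130 and 52 bp upstream, with differences of −45.0 and −8.88 percentage points.

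The promoter had 4 CpGs inside CCGG, 663, 516, 130 and 52 bp from the start. The one 663 bp upstream was measured on the plus strand and had a mean level of 43.4%, close to the 44.3% of its neighbour 659 bp upstream. The other 3 stood apart from their neighbours. At the CpG 516 bp upstream, the plus strand had 88.9% to 100% in the 8 lines (15 to 41 reads before scaling), and the minus strand had 0% to 59.4%. At the CpG 130 bp upstream, the plus strand had 0% to 9.46%. Its minus strand had 34.3%, 19.3%, 33.8% and 34.2% in lines 29, 37, 11 and 17, and 76.9%, 62.5%, 67.4% and 56.4% in lines 44, 45, 20 and 21, while every CpG near the gene outside CCGG had a mean level under 3%. At the CpG 52 bp upstream, the strands had 22.4% and 31.3%. The mean absolute strand difference was 43.6 percentage points at the 3 CpGs in CCGG with both strands, 10.4 percentage points at the 9 upstream CpGs outside CCGG and 2.00 percentage points at the 17 others. The same held in the whole table. Of 10917 CpGs in CCGG, 51.5% had strands more than 20 percentage points apart, against 0.0458% of 69822 CpGs outside. The cut ends are filled in during library preparation, and the part of that step in the values at CCGG was not tested. Among CpGs outside CCGG with a mean level of 20% to 60%, the mean absolute strand difference was 12.1 percentage points (354 CpGs), close to that of the upstream Vars CpGs.

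**Figure D4:**
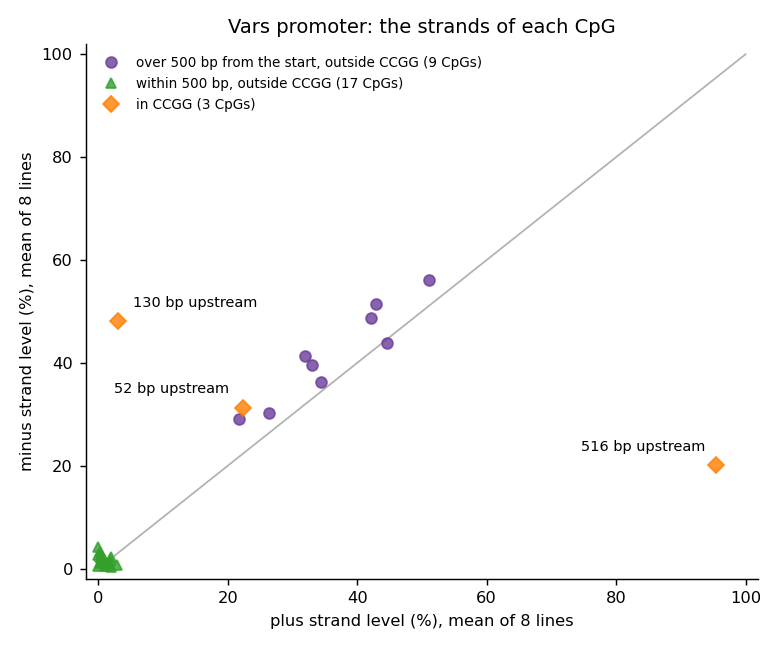
Plus strand against minus strand level (%, mean of 8 lines) for the 29 CpGs of the Vars promoter measured on both strands, with the line of equality. CpGs outside CCGG lie near the line, while those in CCGG 516 bp and 130 bp upstream lie far from it, at 95.5% against 20.1% and 3.09% against 48.1%.

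The end of the variable run was sought with a fixed rule, the longest run of CpGs whose levels differed by at least 20 percentage points between the highest and the lowest line, with 1 CpG under that threshold allowed inside. The run had 12 variable CpGs. Of these, 11 were the whole upstream run, where the range over lines was 30.9 to 75.1 percentage points. The 12th was the CpG in CCGG 130 bp upstream, which the rule joined across the unmeasured bases and the CpG 232 bp upstream. At that CpG the range was 5.88 percentage points. As written, the rule ended the run at that CpG, 130 bp from the start. With no CpG allowed inside, the run had 11 CpGs and ended at 35000471, 516 bp from the start. Without the sites in CCGG it had 9 CpGs and ended at 35000430, 557 bp from the start, and the next CpG measured outside CCGG was the one 232 bp upstream. The end of the variable run thus depended on how CpGs in CCGG were treated.

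The upstream run also differed in sequence. All 149 bases were compared with the rest of the mouse chromosomes by BLAST. They had 166 similar stretches of at least 100 bases, on 19 chromosomes. The closest had 98.7% identity over 149 bases, and 142 had at least 90% identity. The run near the gene had 0 similar stretches. Similarity to at least 10 other places, over at least 50 bases each, ran without a break from 35000210 to 35000744, 777 to 243 bp from the start, so that it covered 21 of 21 upstream sites and 0 of 38 sites near the gene. The last base with any such similarity was 7 bases before the first CpG of the near run, and 2 bases outside the curated start of the minus-strand gene D17H6S56E-5. Whether reads from other copies were placed here was not tested. Of the other copies only 1 site was in the promoter table, upstream of Gm49980, with 84.2% to 100% in the 8 lines.

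Sites were called lower in ICSI-F1 GS cells when the group means differed by more than 20 percentage points and none of the ICSI-F1 lines exceeded the mean of the control-F1 lines. By this rule 11 of 59 Vars sites were lower and 0 were higher, against 0.0506% of all 203645 sites called lower. The rule that picked the promoter used these values, so nothing is read from that share. The count was 0 in lines 29, 37, 11 and 17 alone and 20 in lines 44, 45, 20 and 21 alone. It was 7 without line 44, 6 without line 45 and 17 without line 11. The 11 sites belonged to 8 CpGs and lay between 35000341 and 35000472, all in the upstream run. Their differences were −20.2 to −35.7 percentage points, the smallest at 35000412 on the minus strand. Another 5 upstream sites passed 20 percentage points but were not called, because line 11 lay above the control-F1 mean there, and the next site below the threshold was at −17.2 percentage points. No Vars site had all ICSI-F1 lines below all control-F1 lines together with such a difference, which held for 0.00884% of all sites. Over the upstream run, control-F1 lines averaged 52.4% ± 20.6 and ICSI-F1 lines averaged 29.8% ± 14.8 (SD, n = 4 each), a difference of −22.6 percentage points. Over the whole promoter it was 21.3% ± 8.32 and 13.1% ± 5.44, a difference of −8.18 percentage points. The groups overlapped in both. Near the gene it was 4.02% ± 1.72 and 3.81% ± 1.17.

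The group difference had unlike sizes in lines whose labels are worded in different ways. The labels of lines 29, 37, 11 and 17 (label set 1) and of lines 44, 45, 20 and 21 (label set 2) are worded in 2 ways, and each set held 2 lines of each group. Within label set 1 the upstream difference was −3.41 percentage points, and within label set 2 it was −41.8 percentage points, and the contrast between the sets was not tested. At the 18 upstream sites outside CCGG, both control-F1 lines of label set 2 lay above both ICSI-F1 lines of that set at 18 sites, and at 1 site in label set 1. Leaving out 1 line at a time gave −16.9 percentage points without line 45 to −31.2 percentage points without line 29.

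Label set 2 was higher than label set 1 by 6.54 percentage points over the promoter (20.4% ± 9.15 against 13.9% ± 5.60, SD, n = 4, exact two-sided permutation test, p = 0.286, adjusted p = 0.371 over 3 comparisons), and had 48.1% against 34.1% in the upstream run (exact permutation test, p = 0.371). With reads pooled over the sites, the promoter difference was 1.96 percentage points (exact permutation test, p = 0.6). At the 34 sites near the gene outside CCGG the sets did not overlap, with 0.467% ± 0.184 in label set 1 and 2.10% ± 0.592 in label set 2 (SD, n = 4, exact permutation test, p = 0.0286, the smallest that 4 lines against 4 allow, adjusted p = 0.0857). The sites of the whole table with low levels moved likewise, from 0.815% to 1.53% in label set 1 and from 2.25% to 3.34% in label set 2. Their part in the values near Vars was not tested.

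Compared with other island promoters, Vars was high and variable. This is a description, since Vars was picked by its levels and their profile, and the SD over 8 lines includes the group difference. Of 2589 promoters with at least 10 sites, all in an island, the median level was 4.66% and the median SD over 8 lines was 1.64 percentage points. Vars had 17.2% and 7.84 percentage points. Promoters as high as Vars or higher numbered 6, Vars included, and 9 had as large an SD or larger. A split within 1 promoter, with at least 10 sites at 20% or more and at least 10 sites under 5%, was present in 74 promoters of the table. Vars had 24 and 35 such sites.

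Among aminoacyl-tRNA synthetases, the enzymes that load the other amino acids, and the components of their cytosolic complex, 40 genes besides Vars were listed and 20 had promoter sites, 11 of 23 cytosolic and 9 of 17 mitochondrial. Their 313 sites gave 0 called lower and 0 called higher by the rule above. Over all sites 0.0506% were called lower, so that 0 of 313 is close to that share and nothing is read from it. Their mean levels ran from 1.54% to 17.1%, with a median of 6.00%, and their SDs over lines had a median of 1.86 percentage points. Mean levels closest to that of Vars were found at Aimp2, a scaffold of the complex, with 17.1% (6 sites), and Kars for lysine with 16.8% (3 sites). Next came Iars for isoleucine with 15.3% (15 sites), Nars2 for mitochondrial asparagine with 13.1% (5 sites) and Cars for cysteine with 11.1% (4 sites). The sites of Iars and Cars lay outside islands. The highest site of Iars had a mean level of 93.3%, so that its promoter mean does not describe an even level. Vars2, the mitochondrial counterpart of Vars, had 5.01% ± 1.67 (SD over 8 lines) over 36 island sites. In limma on the log-ratio of methylated to unmethylated reads, 0 of the 20 promoters passed an adjusted p of 0.05 in either direction, as did 0% of 8174 promoters tested higher and 0% lower. The median difference was −0.288 percentage points over the 20 promoters and −0.161 percentage points over all promoters. At an unadjusted p under 0.05 there were 235 promoters (2.87%), and 1 on the list, Gars for glycine, with a log2 difference of −0.91 (SE 0.38), which is named because its value was seen.

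**Figure D5:**
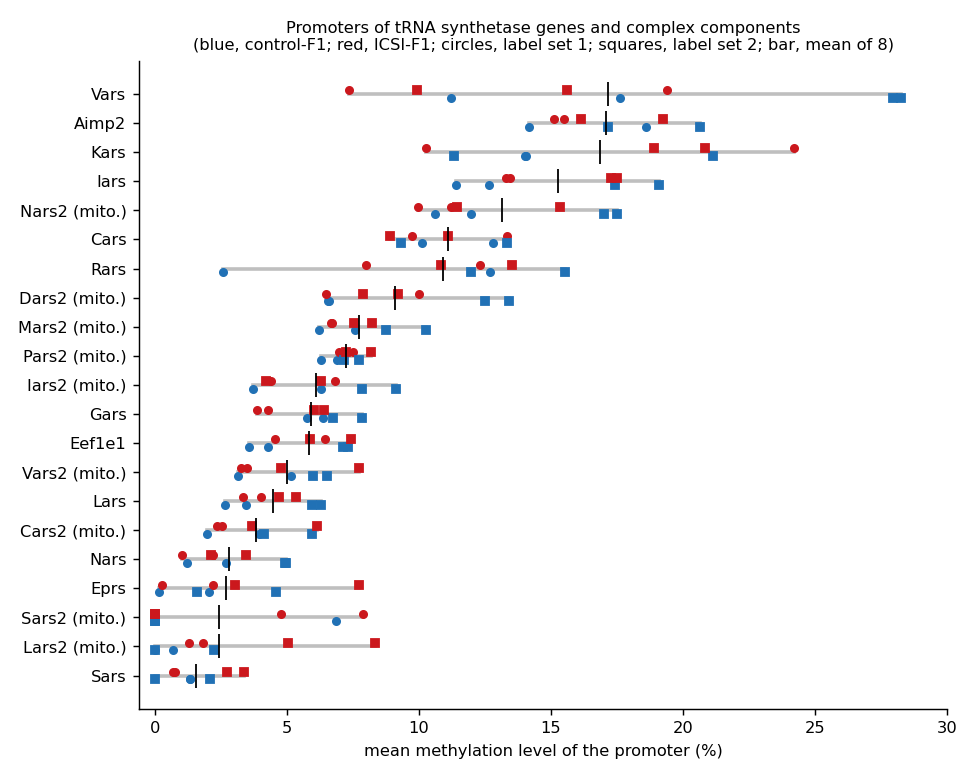
Mean promoter methylation level (%) of Vars and 20 other tRNA synthetase and complex genes in each line (blue, control-F1; red, ICSI-F1; circles, label set 1; squares, label set 2; gray bar, range; black mark, mean of 8 lines). Vars is the highest at 17.2% and the widest, from 7.35% to 28.2%, and Aimp2 and Kars have like means.

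Promoters of genes within 100 kb of Vars had a range of levels. The choline transporter gene Slc44a4 had 6.16% (2.83% to 11.6% over the lines), and the sialidase gene Neu1 had 1.60%. The heat shock genes Hspa1a and Hspa1l had 0.996% (3 sites) and 12.9% (8 sites). The highest site of Hspa1l had a mean level of 92.7%, so that its promoter mean does not describe an even level. Vwa7, directly beyond the end of Vars, had 92.9% over 10 sites, and the single site of Gm20481 had 95.5% (85.7% to 100% over the lines). None of these had a called site. Over all sites 0.0506% were called lower, so that nothing is read from this. The promoters most like Vars over the 8 lines, of 188 with at least 10 sites and an SD of at least 5 percentage points, were Tomm7 (Pearson r 0.885), Cdv3 (0.819), Zfp397 (0.744), H1f2 (0.743) and Tmem230 (0.729). In each of them lines 44 and 45 were the highest, and their group differences were −4.42 to −7.45 percentage points. They were picked by likeness to Vars over these same lines, so that nothing is read from either trait. These correlations describe 8 lines that share their libraries and label sets.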

How the data were processed

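RRBS libraries of 8 GS cell lines were made by the authors with MspI, trimmed with Trim Galore 0.5.0, aligned to mm10 with Bismark 0.20.0 in its mode for libraries read from all strands, and counted with methylKit, version 1.16.0 per the labels. The study's methods give another methylKit version. The deposited values of methylated and unmethylated reads are a score rather than raw counts, because the authors scaled coverage between lines, and sites under 10 reads in a line were removed. Scale factors of 1 to 1.88 were recovered here and undone for intervals. Vars sites had 12 to 169 reads per line before scaling. Coverage summed over the sites of the table was 9121937 to 16781748 per line before scaling, in which a read over several sites counts at each. The level was methylated reads divided by all reads, a promoter value the unweighted mean of its sites, and a group value the mean of 4 lines. A line has 1 library, so that p-values rest on the spread between lines, which cannot be told apart from that between libraries. The sign-flip tests rest on the difference between strands within each line. Tests were exact permutation tests over lines and limma 3.58.1 in R 4.3.3 with Benjamini-Hochberg adjustment. The limma step was checked on simulated promoters that all had the same spread between lines. That check does not show its power at promoters with a larger spread. The planned test had assumed raw counts. Sequences were compared with BLAST+ 2.17.0. Named were Vars, the synthetase promoters with the 5 highest mean levels, Vars2, neighbours within 100 kb and the 5 promoters most like Vars. Gars was named after its value was seen. The promoter, lists and rules were chosen with earlier results of these data known. A relation of the Vars level with the mean of all other sites over lines was not computed, because the lines form 2 clusters in that mean, 6.13% to 6.88% in label set 1 and 8.24% to 9.26% in label set 2.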

Additional observations from a re-analysis of the deposited data

Results flagged for a closer look

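In 82 groups of 4 lines, each a Vars region, a named Vars site or a named promoter, the highest or lowest line was compared with the rest by Dixon's test at its 95% critical value. It stood apart in 7. The nominal rate of about 1 in 20 groups assumes normally distributed values, so that it does not hold for levels tied at 0% or 100%. At Hspa1a, Zfp397 and 35000471 the other lines were tied in this way, and any differing line would have been flagged there. At the Vars site 35000936 on the minus strand, in CCGG, control-F1 line 45 had 41.4% against 27.3% to 28.6% in the other control-F1 lines. At the Vars site 35000471 on the plus strand, in CCGG, ICSI-F1 line 11 had 90.9% against 100% in the other ICSI-F1 lines. At the Hspa1a promoter, control-F1 line 45 had 7.97% and the other control-F1 lines were at 0. At the single Gm20481 site, control-F1 line 29 had 85.7% against 97.7% to 100%. At the Neu1 promoter, ICSI-F1 line 21 had 4.53% against 0.181% to 0.397%. At the Tomm7 promoter, ICSI-F1 line 21 had 2.17% against 0.278% to 0.529%. At the Zfp397 promoter, ICSI-F1 line 20 had 1.81% and the other ICSI-F1 lines were at 0. No cause was tested for any of these.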

How the results depend on the processing

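Of 96 alternatives, 83 kept the direction and the side of the threshold or stayed within the allowed range, and 13 did not; the cause was not tested. The promoter difference was −1.03 percentage points in label set 1 alone and −15.3 in label set 2 alone, and −11.5 to −5.85 with 1 line left out. The count of 11 lower Vars sites became 0 when the groups were not allowed to overlap, 7 with at least 30 scaled reads in every line, 0 in label set 1 alone and 20 in label set 2 alone. It was 6 to 17 with 1 line left out, with 7 without line 44, 6 without line 45 and 17 without line 11. The strand difference was 4.65 percentage points with pooled reads (exact sign-flip test, p = 0.0625). It was −3.56 with at least 30 reads in every line (exact sign-flip test, p = 0.00781), a setting that left only CpGs near the gene. It was −0.756 near the gene outside CCGG, and −1.81 to −0.695 with 1 line left out. The label set difference was 1.64 percentage points near the gene outside CCGG, and 3.94 to 10.0 with 1 line left out, and 1.96 with pooled reads. The variable run had 12 CpGs with any 1 line left out, and 9 without CCGG. The difference between the runs was 33.3 to 40.6 percentage points with 1 line left out, and 0 synthetase promoters passed limma in any alternative, while without ICSI-F1 line 17 it called 1 of all promoters. Settings without CCGG or with part of the promoter were chosen after seeing the data. Relations with the mean of other sites were not run. No paired analysis was possible because the lines of the groups carry different numbers. Read depth limits each site, and 4 lines per group limit each comparison.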
